A study of Mus musculus with 18 samples.

Results

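The interferon response genes described here are 41 genes named by symbol, all of them widely used markers of a cell's response to interferon. They were found by symbol in a table of 23953 gene entries, and 41 of 41 had an entry. The table holds regulatory T (Treg) cells from C57BL/6 mice, sorted by flow cytometry as CD4+CD25hi cells, in 6 genotypes with 3 libraries each. In the groups miR-23 Tg, miR-24 Tg and miR-27 Tg, T cells overexpressed 1 member of the microRNA cluster that encodes miR-23, miR-27 and miR-24, and in the group cluster Tg they overexpressed the entire cluster. In the group labelled DKO Tg, called DKO here, T cells lacked both copies of the cluster, miR-23a and miR-23b, and the controls are the group labelled WT Tg, called WT here. The series title names CD4cre, a Cre recombinase that acts in developing T cells, so the alleles were changed in conventional T cells of the same mice too and not in Treg cells alone. Whether the WT mice carried the Cre, and the animals' age, sex and number per library, are not given in the sources used here, so the p-values measure the spread between these libraries, which may be technical.

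Interferons are secreted proteins that warn cells of infection. Type I interferons bind the receptor made of IFNAR1 and IFNAR2, and the kinases JAK1 and TYK2 then activate the complex ISGF3, which contains STAT2 and IRF9 and binds the interferon-stimulated response element in promoters. Interferon gamma binds IFNGR1 and IFNGR2, acts through JAK1 and JAK2, and its targets carry the gamma-activated site. In Treg cells, type I interferon and interferon gamma are known to act on suppressive function during infection and inflammation. MicroRNAs can lower the level of transcripts whose 3′ untranslated regions (UTRs) match their seed, the bases 2 to 8 of the mature strand.

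The 3 overexpressed microRNAs are printed because they define the groups, 5′ to 3′ from RefSeq on GRCm38.p6, with the seed in capitals. Their 3 seeds differ from each other. All are on the forward strand of chromosome 8, miR-23a-3p at chr8:84208563-84208583, miR-27a-3p at chr8:84208727-84208747 and miR-24-3p at chr8:84208875-84208896.
miR-23a-3p: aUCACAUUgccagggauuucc
miR-27a-3p: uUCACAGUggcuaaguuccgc
miR-24-3p: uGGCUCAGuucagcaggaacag

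Promoters of the members were searched in RefSeq sequence on GRCm38.p6, from 250 bases before to 50 bases after the gene's start, and 31 of 41 members had a promoter there. The interferon-stimulated response element was searched on both strands as GAAA, any pair of bases and GAAA again. It was present in 15 of 31 member promoters (48.4%), against 3.99% of all 27025 promoters and 3.76% of the 8519 promoters of tested genes. The gamma-activated site, TTC, 3 bases of any kind and GAA, which reads the same on both strands, was in 9 of 31 (29.0%), against 9.55% of all promoters and 8.52% of those of tested genes. Both motifs can overlap in 1 promoter, and a match describes the letters only, not a bound site. The windows below are examples of members that were called higher in miR-27 Tg (Isg15, Oas3, Rsad2, Ifit1, Ifit3) and of members that were not (Igtp, Irf1), with the motif in capitals, read 5′ to 3′ along the gene's strand.
Isg15, chr4:156200861-156200910, reverse strand, motif starting 72 bases before the start: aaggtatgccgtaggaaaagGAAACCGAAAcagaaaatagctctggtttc
Oas3, chr5:120777705-120777754, reverse strand, motif starting 75 bases before the start: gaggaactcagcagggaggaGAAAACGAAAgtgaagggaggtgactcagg
Rsad2, chr12:26456543-26456592, reverse strand, motif starting 120 bases before the start: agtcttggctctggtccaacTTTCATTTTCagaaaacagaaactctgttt
Ifit3, chr19:34583387-34583436, forward strand, motif starting 122 bases before the start: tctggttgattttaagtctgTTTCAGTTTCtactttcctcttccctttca
Ifit1, chr19:34640784-34640833, forward strand, motif starting 85 bases before the start: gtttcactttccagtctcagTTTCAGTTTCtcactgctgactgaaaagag
Igtp, chr11:58199502-58199551, forward strand, motif starting 34 bases before the start: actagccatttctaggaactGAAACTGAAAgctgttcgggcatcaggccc
Irf1, chr11:53769904-53769952, forward strand, gamma-activated site starting 90 bases before the start: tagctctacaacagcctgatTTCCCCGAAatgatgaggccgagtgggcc

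The labels were checked at the microRNA genes, where the table lists reads of the locus and not mature microRNA. RPKM, a read density corrected for transcript length and library size, at Mir27a was 50014 to 79108 in miR-27 Tg and 13710 to 24076 in cluster Tg, against 0 to 347 in WT and 0 in DKO. Mir23a stood at 31028 to 38276 in miR-23 Tg and Mir24-2 at 7999 to 22325 in miR-24 Tg, each at or below 155 RPKM in WT. Treg markers were present in all libraries, with a summed level of 2214 to 2871 RPKM. Markers of other cells were also present and differed between groups. The summed level of B cell markers was 19.7 to 25.1 RPKM in WT, 37.98 to 110.4 in miR-27 Tg and 30.1 to 45.9 in cluster Tg, and myeloid markers summed to 14.8 to 18.5, 36.4 to 83.1 and 26.6 to 32.7. In DKO both sums lay near WT, at 19.6 to 23.2 and 15.97 to 17.4 RPKM, with the myeloid markers S100a8 and S100a9 listed at 0. Cell cycle genes summed to 38.4 to 87.7 RPKM in WT, 188 to 524 in miR-27 Tg and 162 to 214 in cluster Tg. Spacing of low values placed the depth at about 20.5 to 31.7 megareads per library, an approximate figure.

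In WT Treg cells the members covered a wide range of levels. Per length and depth, Samhd1, which breaks down deoxynucleotides, was the highest at 336 ± 40.3 RPKM (SD, n = 3), followed by the GTPase gene Ifi47 at 208 ± 17.99 and Irf1 at 187 ± 33.1. The lowest were Ifi204 at 0.115 ± 0.0551 and Ifi44 at 0.968 ± 0.229, and Rsad2 (2.37 ± 0.282) and Mx2 (2.83 ± 0.668) came next. All 41 members passed the filter of 1 RPKM in at least 3 libraries, but Ifi204 did so only through libraries of miR-27 Tg and cluster Tg.

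Isg15, the RNA sensor genes Ifih1 and Dhx58 and 12 of 15 antiviral effectors were higher in Treg cells overexpressing miR-27 or the whole cluster. Not called were 4 of 5 interferon-inducible GTPase genes of the IRG and GBP families and the sensor gene Ddx58. Against WT, 24 of 41 members were called higher in miR-27 Tg and 0 lower, where 15.9% of the 11520 tested genes were called higher and 12.7% lower. With the 2 libraries of highest B cell marker sums left out (library 1 of miR-24 Tg and library 3 of miR-27 Tg), 20 members were called in miR-27 Tg. The miR-27 Tg libraries kept had B cell sums of 37.98 and 69.9 RPKM, against 19.7 to 25.1 in WT. This fit therefore does not take out the difference in B cell markers. In cluster Tg, 23 members were called higher and 1 lower, against 13.8% and 10.5% of tested genes. Called means an adjusted p under 0.05 in a limma model of log2(RPKM + 0.5) over all 18 libraries, adjusted by Benjamini-Hochberg over the tested genes, and every fold change below is on that scale. Without Ifi204, whose place among the tested genes rests on the groups where it was high, 23 of 40 were called higher in miR-27 Tg, and 22 of 40 higher with 1 lower when the group was cluster Tg. The median log2 difference of the 41 members was 0.49 for miR-27 Tg and 0.54 for cluster Tg, and that of all tested genes 0.0051 and 0.016. In miR-24 Tg, 2 members were called higher, where 4.6% of tested genes were called higher and 4.38% lower. In miR-23 Tg and DKO 0 members passed, as described further on. All 5 comparisons use the same WT libraries, and in these bulk samples a change in the share of a cell type and a change in RNA per cell cannot be told apart.

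**Figure D1:**
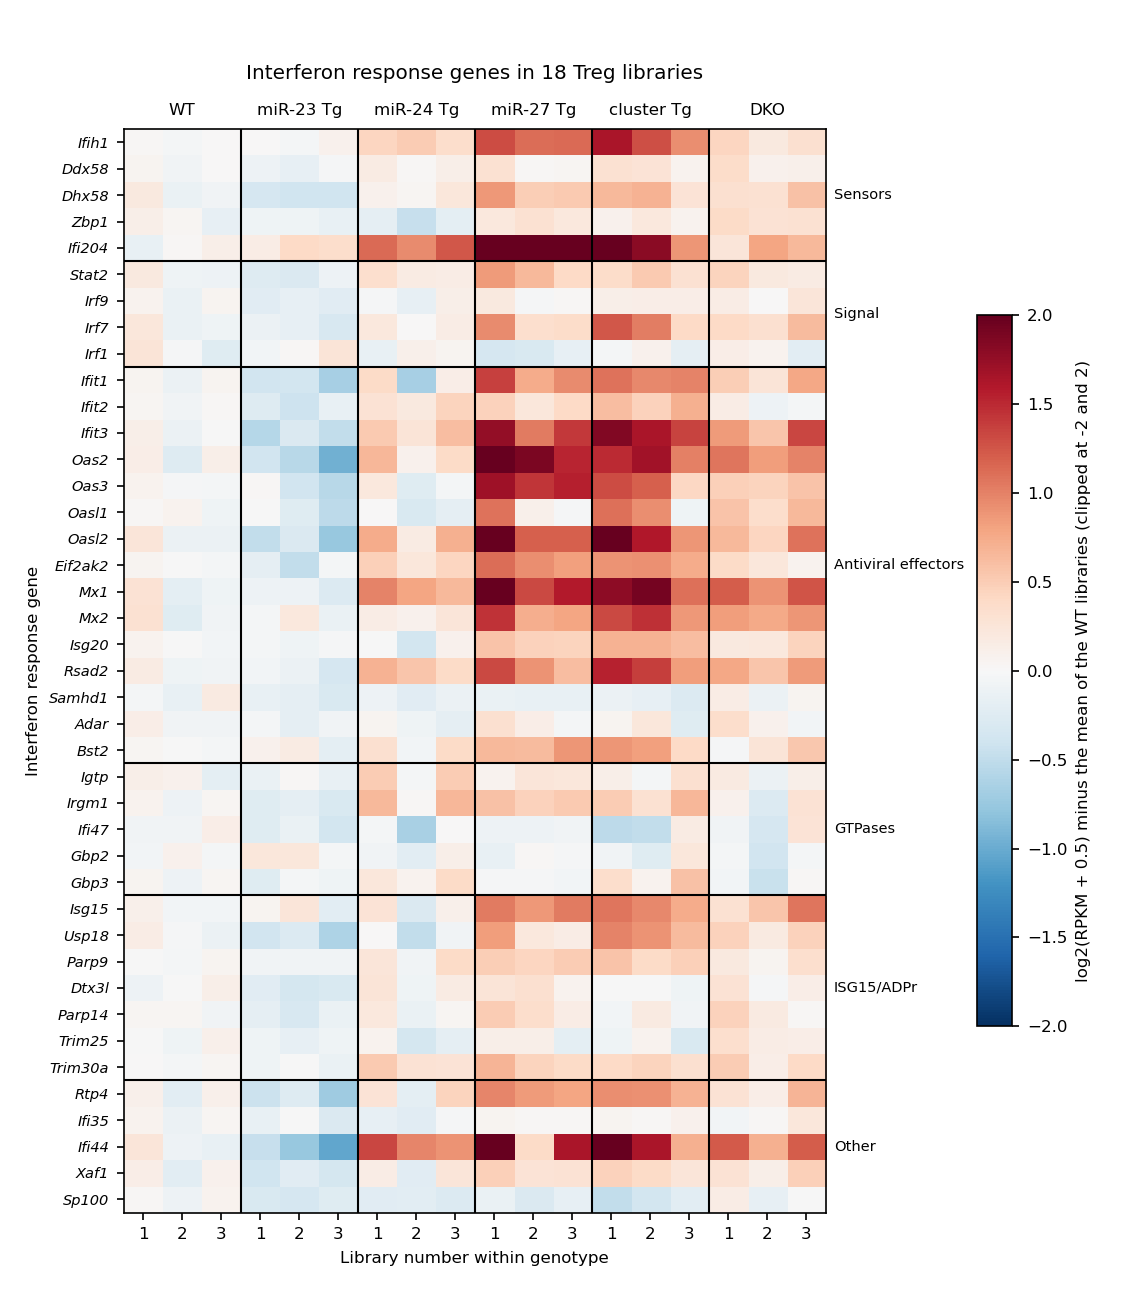
Each row is 1 of the 41 interferon response genes, grouped by role, and each column 1 of 18 libraries; colour gives log2(RPKM + 0.5) minus the mean of the 3 WT libraries, limited to 2 in either direction. Most effector and sensor rows are above the WT mean in the miR-27 Tg and cluster Tg columns. The GTPase rows, of the IRG and GBP families, are mostly near it. In miR-23 Tg 34 of 41 members have a mean below WT.

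Among the nucleic acid sensors, 3 of the 4 other than Ifi204 were called higher in miR-27 Tg and 2 of these 4 in cluster Tg. Ifih1 encodes MDA5, a cytosolic sensor of long double-stranded RNA, and lies on the reverse strand at chr2:62595798-62646255 (GRCm38, GENCODE M21). Ifih1 stood at 8.75, 8.33 and 8.66 RPKM in WT libraries 1 to 3, at 21.99, 19.3 and 19.5 in miR-27 Tg and at 27.7, 21.7 and 16.8 in cluster Tg. For Ifih1 the remaining libraries held 8.63, 8.31 and 9.17 for miR-23 Tg, 11.7, 12.5 and 11.1 for miR-24 Tg and 11.7, 9.95 and 10.9 for DKO. Every miR-27 Tg and cluster Tg library lay above every WT library and above every library of the other groups. Ifih1 rose 2.28-fold in miR-27 Tg (log2 1.19, SE 0.13, adjusted p = 3.99e-05) and 2.43-fold in cluster Tg (log2 1.28, SE 0.13, adjusted p = 3.64e-05). Dhx58 stood at 17.9, 14.2 and 14.8 RPKM in WT libraries 1 to 3, at 28.7, 22.2 and 22.4 in miR-27 Tg and at 24.6, 25.4 and 18.8 in cluster Tg. For Dhx58 the remaining libraries held 12.2, 11.7 and 11.7 for miR-23 Tg, 16.4, 15.99 and 18.3 for miR-24 Tg and 19.4, 19.2 and 23.5 for DKO. Dhx58 encodes LGP2, a relative of MDA5 that modulates its signalling, and its miR-27 Tg and cluster Tg libraries were all above the WT libraries, with cluster Tg library 3 nearest to them. It rose 1.55-fold in miR-27 Tg (log2 0.63, SE 0.13, adjusted p = 0.00282) and 1.45-fold in cluster Tg (log2 0.54, SE 0.13, adjusted p = 0.00873), the second with an adjusted p of 0.0574 when only the compared groups were fitted.

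Ifi204, a sensor of DNA of the PYHIN family, was very low in WT. Ifi204 stood at 0.0559, 0.123 and 0.165 RPKM in WT libraries 1 to 3, at 3.83, 2.42 and 5.92 in miR-27 Tg and at 3.69, 1.63 and 0.626 in cluster Tg. For Ifi204 the remaining libraries held 0.180, 0.311 and 0.284 for miR-23 Tg, 0.842, 0.683 and 0.950 for miR-24 Tg and 0.225, 0.563 and 0.459 for DKO. All miR-27 Tg libraries were above 2 RPKM, whereas in cluster Tg only libraries 1 and 2 passed 1 RPKM. The log2 difference of Ifi204 was 2.82 for miR-27 Tg and 1.82 for cluster Tg, given as a description because the gene passed the filter only through these groups. With a pseudocount of 0.1 the log2 difference in miR-27 Tg was 4.22, and with 1 it was 2.12, so its size depends on that choice. Zbp1 stood at 113, 107 and 93.2 RPKM in WT libraries 1 to 3, at 120.3, 129 and 120.2 in miR-27 Tg and at 111, 120.5 and 109 in cluster Tg. For Zbp1 the remaining libraries held 98.7, 98.5 and 93.9 for miR-23 Tg, 91.8, 75.7 and 90.8 for miR-24 Tg and 136, 127 and 129 for DKO. Zbp1, a sensor of Z-form nucleic acid that can trigger cell death, was called higher in miR-27 Tg by 1.18-fold (log2 0.24, SE 0.084, adjusted p = 0.0473), where all libraries lay above WT, and was not called in cluster Tg (log2 0.12, adjusted p = 0.318). The Zbp1 call was lost in 9 of 13 alternative fits, among them those without any 1 of the miR-27 Tg libraries or without WT library 2 or 3, with adjusted p up to 0.202. Ddx58, which encodes the RNA sensor RIG-I, stood at 25.5 ± 1.13 RPKM in WT, 27.96 ± 3.26 in miR-27 Tg and 29.8 ± 2.66 for cluster Tg (SD, n = 3 each) and was called in neither.

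Of the 4 genes of signal transducers and transcription factors, Stat2 and Irf7 were called higher in both groups, and Irf9 and Irf1 in neither. Stat2 stood at 34.4, 28.3 and 28.02 RPKM in WT libraries 1 to 3, at 54.8, 47.3 and 39.9 in miR-27 Tg and at 38.8, 43.6 and 37.3 in cluster Tg. For Stat2 the remaining libraries held 25.1, 24.5 and 28.03 for miR-23 Tg, 38.2, 33.8 and 33.4 for miR-24 Tg and 41.3, 34.4 and 33.9 for DKO. Stat2 is a component of ISGF3, and all its miR-27 Tg and cluster Tg libraries were above the WT libraries. It rose 1.55-fold in miR-27 Tg (log2 0.63, SE 0.12, adjusted p = 0.00165) and 1.32-fold in cluster Tg (log2 0.40, SE 0.12, adjusted p = 0.0266). Irf7 stood at 53.8, 41.5 and 42.9 RPKM in WT libraries 1 to 3, at 88.9, 57.99 and 59.2 in miR-27 Tg and at 109, 93.6 and 60.7 in cluster Tg. For Irf7 the remaining libraries held 42.1, 40.7 and 36.7 for miR-23 Tg, 53.1, 45.8 and 50.7 for miR-24 Tg and 60.7, 57.1 and 71.5 for DKO. Irf7, whose product drives transcription of type I interferon genes, lies at chr7:141262706-141266481 on the reverse strand, and its libraries in both groups were above WT, with 1 or 2 of 3 far above and the rest close to the highest WT library. It rose 1.47-fold in miR-27 Tg (log2 0.55, SE 0.20, adjusted p = 0.049) and 1.85-fold in cluster Tg (log2 0.89, SE 0.20, adjusted p = 0.00511). The Irf7 call in miR-27 Tg held in only 5 of 13 alternative fits (adjusted p up to 0.189). It was lost without miR-27 Tg library 1 or 3, WT library 2 or 3, or the 2 libraries of highest B cell marker sums. It was also lost with no filter, with median-of-ratios scaling and with only the compared groups. The Irf7 call in cluster Tg was lost when only the compared groups were fitted (adjusted p = 0.05). The Stat2 call in cluster Tg was lost in that fit too. It was also lost without cluster Tg library 1 or 2 or WT library 2 or 3 (up to 0.0938). Irf9, the DNA-binding part of ISGF3, stood at 80.4 ± 5.95 RPKM in WT, 84.1 ± 6.92 in miR-27 Tg and 87.7 ± 0.466 for cluster Tg, and Irf1, a factor induced by interferon gamma, at 187 ± 33.1, 154 ± 10.6 and 180.1 ± 16.6 (SD, n = 3).

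The effectors that act on viral RNA, translation or particles held the most calls, 12 of 15 in miR-27 Tg and 12 of 15 in cluster Tg. The OAS enzymes make 2′-5′ oligoadenylate, the signal that activates RNase L. Oas2 stood at 5.82, 4.35 and 5.78 RPKM in WT libraries 1 to 3, at 24.7, 20.9 and 16.2 in miR-27 Tg and at 15.8, 17.98 and 11.1 in cluster Tg. For Oas2 the remaining libraries held 3.91, 3.43 and 2.48 for miR-23 Tg, 8.70, 5.61 and 7.03 for miR-24 Tg and 11.6, 9.85 and 10.95 for DKO. Its miR-27 Tg and cluster Tg libraries were all above WT, and its DKO libraries were also all above the highest WT library. Oas2, at chr5:120730333-120749853 on the reverse strand, rose 3.60-fold in miR-27 Tg (log2 1.85, SE 0.21, adjusted p = 5.05e-05) and 2.63-fold in cluster Tg (log2 1.39, SE 0.21, adjusted p = 0.000457). Oas3 stood at 9.89, 9.27 and 9.13 RPKM in WT libraries 1 to 3, at 31.7, 26.1 and 28.8 in miR-27 Tg and at 23.9, 22.3 and 12.7 in cluster Tg. For Oas3 the remaining libraries held 9.60, 7.10 and 6.22 for miR-23 Tg, 10.97, 7.93 and 9.19 for miR-24 Tg and 13.3, 13.1 and 14.3 for DKO. Likewise no Oas3 value of a miR-27 Tg or cluster Tg library overlapped WT, but cluster Tg library 3 was far below libraries 1 and 2. It rose 2.95-fold (log2 1.56, SE 0.20, adjusted p = 0.000126) and 1.96-fold (log2 0.97, SE 0.20, adjusted p = 0.0031) respectively. Oasl2 stood at 6.61, 5.01 and 5.003 RPKM in WT libraries 1 to 3, at 23.5, 13.3 and 13.2 in miR-27 Tg and at 27.7, 17.6 and 10.6 in cluster Tg. For Oasl2 the remaining libraries held 3.76, 4.39 and 3.03 for miR-23 Tg, 9.52, 6.21 and 9.34 for miR-24 Tg and 8.94, 7.60 and 12.2 for DKO. Oasl2, an OAS-like gene with a ubiquitin-like tail, spread widely within both groups, and still no library of either overlapped WT. It rose 2.76-fold in miR-27 Tg (log2 1.46, SE 0.31, adjusted p = 0.00298) and 2.98-fold in cluster Tg (log2 1.57, SE 0.31, adjusted p = 0.00233).

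The IFIT proteins bind foreign RNA ends and block its translation, the MX proteins are dynamin-like GTPases that trap viral particles, and Rsad2 encodes viperin, which makes a chain-terminating nucleotide. Ifit3 stood at 7.54, 6.35 and 6.91 RPKM in WT libraries 1 to 3, at 24.6, 14.7 and 19.4 in miR-27 Tg and at 26.3, 22.5 and 18.3 in cluster Tg. For Ifit3 the remaining libraries held 4.51, 5.54 and 4.78 for miR-23 Tg, 10.1, 8.36 and 10.9 for miR-24 Tg and 12.9, 10.4 and 18.2 for DKO. No Ifit3 library of miR-24 Tg, miR-27 Tg, cluster Tg or DKO overlapped WT, all being higher, and the miR-23 Tg libraries were all lower. Ifit3 rose 2.65-fold in miR-27 Tg (log2 1.41, SE 0.20, adjusted p = 0.000275) and 3.06-fold in cluster Tg (log2 1.61, SE 0.20, adjusted p = 0.000138). Mx1 stood at 6.27, 4.34 and 4.71 RPKM in WT libraries 1 to 3, at 23.2, 13.3 and 16.1 in miR-27 Tg and at 18.7, 20.5 and 11.4 in cluster Tg. For Mx1 the remaining libraries held 4.65, 4.64 and 4.06 for miR-23 Tg, 10.6, 9.11 and 8.24 for miR-24 Tg and 12.3, 9.79 and 12.7 for DKO. Mx1, at chr16:97447035-97462907 on the reverse strand, is known to encode a truncated protein in C57BL/6 mice, and its libraries were above WT in 4 groups, miR-23 Tg being the exception. It rose 3.17-fold in miR-27 Tg (log2 1.66, SE 0.22, adjusted p = 0.000159) and 3.04-fold in cluster Tg (log2 1.60, SE 0.22, adjusted p = 0.000273). Rsad2 stood at 2.69, 2.19 and 2.22 RPKM in WT libraries 1 to 3, at 6.64, 4.81 and 3.89 in miR-27 Tg and at 7.83, 6.93 and 4.61 in cluster Tg. For Rsad2 the remaining libraries held 2.24, 2.13 and 1.77 for miR-23 Tg, 4.11, 3.69 and 3.22 for miR-24 Tg and 4.37, 3.68 and 4.66 for DKO. Its libraries were above WT in the same 4 groups. Rsad2 rose 1.93-fold in miR-27 Tg (log2 0.95, SE 0.19, adjusted p = 0.00234) and 2.39-fold in cluster Tg (log2 1.25, SE 0.19, adjusted p = 0.000496).

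**Figure D2:**
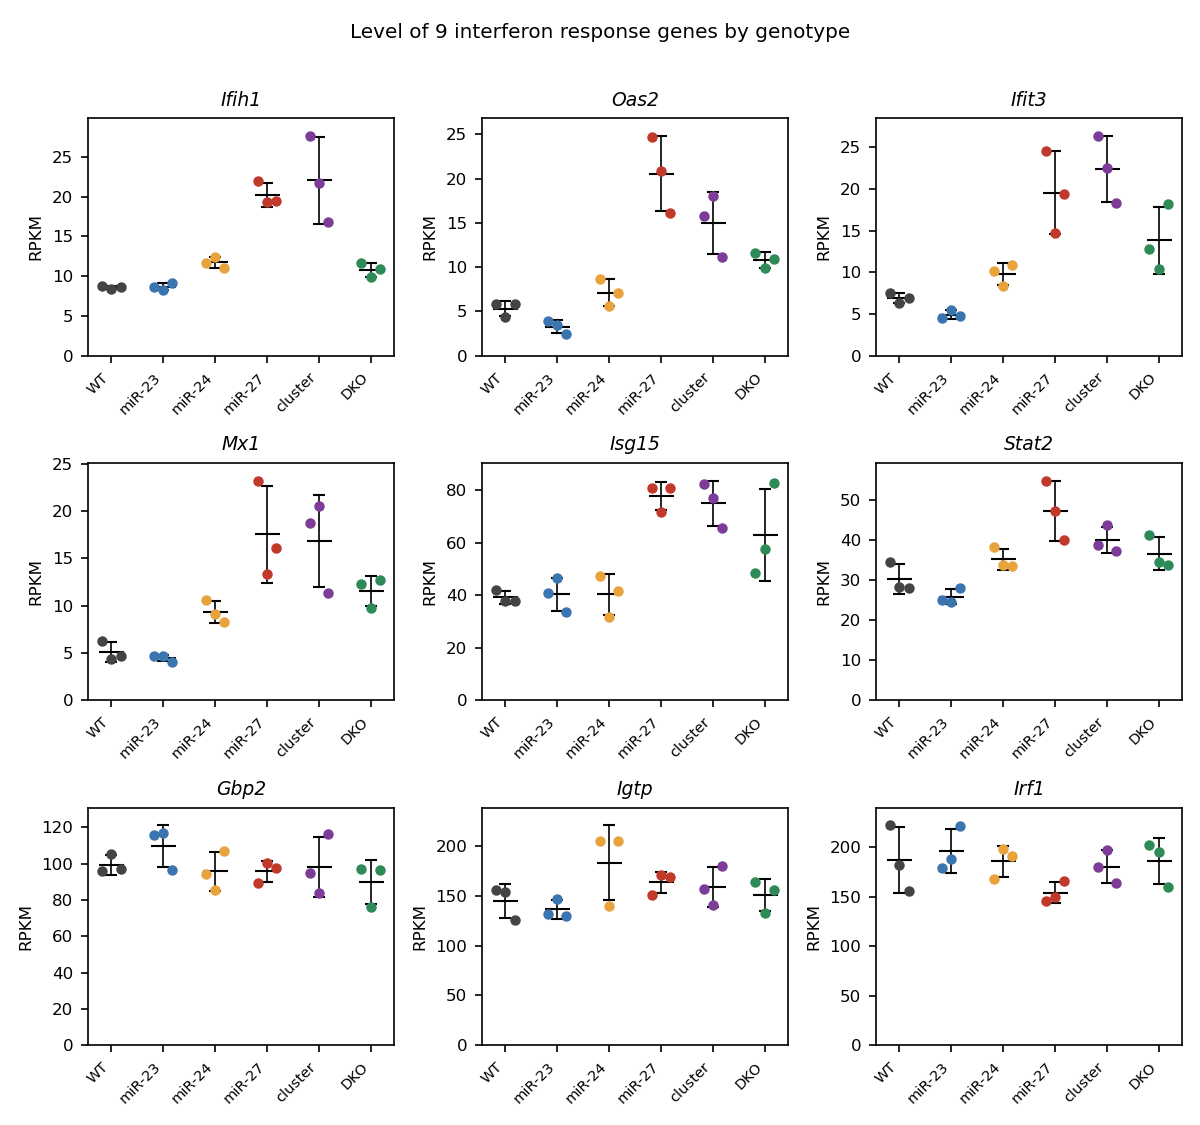
RPKM of 9 members in each of the 18 libraries (dots), with the group mean and SD (n = 3 per group) as bar and whisker. Ifih1, Oas2, Ifit3, Mx1, Isg15 and Stat2 are higher in every miR-27 Tg and cluster Tg library than in any WT library, and Gbp2, Igtp and Irf1 overlap WT in all groups.

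The remaining effectors called in both groups were Eif2ak2, Ifit1, Mx2, Bst2, Isg20 and Ifit2. Eif2ak2, which encodes the kinase PKR that halts translation, had means of 14.01 ± 0.495 RPKM in WT, 27.7 ± 2.87 in miR-27 Tg and 25.7 ± 1.71 for cluster Tg (SD, n = 3). It rose 1.94-fold (log2 0.96, SE 0.12, adjusted p = 0.0001) and 1.80-fold (log2 0.85, SE 0.12, adjusted p = 0.000273). Bst2, which encodes tetherin, a tether of budding virions, was 1.65-fold and 1.62-fold higher. Ifit1 was 2.02-fold and 2.02-fold higher, and Mx2 1.98-fold and 2.32-fold. The exonuclease gene Isg20 was 1.41-fold and 1.59-fold higher, and Ifit2 1.29-fold and 1.52-fold, the former with an adjusted p of 0.0546 when library 1 of miR-24 Tg and library 3 of miR-27 Tg, which had the highest B cell marker sums, were left out. Not called in either were Adar, the RNA-editing deaminase gene (log2 0.14 and 0.012), Samhd1 (-0.14 and -0.19) and Oasl1 (0.39 and 0.65). Oasl1 was carried by library 1 in miR-27 Tg, at 11.4, 5.52 and 5.06 RPKM. In cluster Tg it was carried by libraries 1 and 2, at 11.6, 10.2 and 4.83, against 5.25, 5.38 and 4.78 in WT. Members of the Oas, Ifit and GTPase families have close paralogs, such as Ifit3 and Ifit3b, so their read counts are uncertain where the authors' counting could split reads between copies.

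ISG15 is a ubiquitin-like protein that is attached to other proteins, and USP18 removes it and also dampens signalling at IFNAR2. Isg15 stood at 42.1, 37.8 and 37.7 RPKM in WT libraries 1 to 3, at 81.05, 71.7 and 81.04 in miR-27 Tg and at 82.6, 77.1 and 65.7 in cluster Tg. For Isg15 the remaining libraries held 40.9, 46.5 and 33.7 for miR-23 Tg, 47.4, 31.9 and 41.8 for miR-24 Tg and 48.6, 57.7 and 82.6 for DKO. All miR-27 Tg and cluster Tg libraries were above WT, and so were the DKO libraries, while miR-23 Tg and miR-24 Tg overlapped WT. Isg15, at chr4:156199424-156200818 on the reverse strand, rose 1.97-fold in miR-27 Tg (log2 0.98, SE 0.18, adjusted p = 0.00134) and 1.90-fold in cluster Tg (log2 0.93, SE 0.18, adjusted p = 0.00235). Usp18 stood at 36.2, 32.1 and 30.1 RPKM in WT libraries 1 to 3, at 58.5, 38.03 and 36.1 in miR-27 Tg and at 65.7, 61.3 and 51.2 in cluster Tg. For Usp18 the remaining libraries held 24.9, 26.95 and 21.2 for miR-23 Tg, 32.7, 23.2 and 31.1 for miR-24 Tg and 44.97, 36.9 and 45.4 for DKO. The cluster Tg libraries were all well above WT, and miR-27 Tg overlapped it through library 3. Usp18 rose 1.80-fold in cluster Tg (log2 0.84, SE 0.18, adjusted p = 0.00368) and was not called in miR-27 Tg (log2 0.40, SE 0.18, adjusted p = 0.112), but cluster Tg against miR-27 Tg was not called either (log2 0.45, 95% interval 0.07 to 0.83, adjusted p = 0.14).

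Parp9 stood at 31.8, 31.1 and 33.2 RPKM in WT libraries 1 to 3, at 45.3, 43.2 and 45.9 in miR-27 Tg and at 47.7, 41.96 and 44.97 in cluster Tg. For Parp9 the remaining libraries held 30.5, 30.6 and 30.3 for miR-23 Tg, 38.2, 30.4 and 41.8 for miR-24 Tg and 36.6, 33.5 and 40.6 for DKO. Parp9 encodes an ADP-ribosyltransferase family member that works with the ubiquitin ligase DTX3L, and its libraries in both groups were above WT. It rose 1.39-fold in miR-27 Tg (log2 0.48, SE 0.097, adjusted p = 0.00257) and 1.39-fold in cluster Tg (log2 0.48, SE 0.097, adjusted p = 0.00307). Its neighbour Dtx3l (chr16:35926511-35939151, reverse strand) overlaps Parp9 (chr16:35938470-35972605, forward strand), and as the use of strand is not given in the sources used here, reads in the overlap cannot be told apart. Dtx3l itself was not called (log2 0.22 and -0.034). Trim30a stood at 48.6, 47.1 and 49.7 RPKM in WT libraries 1 to 3, at 78.1, 65.9 and 63.1 in miR-27 Tg and at 63.9, 65.8 and 60.9 in cluster Tg. For Trim30a the remaining libraries held 45.6, 48.2 and 44.2 for miR-23 Tg, 70.1, 59.1 and 58.7 for miR-24 Tg and 68.9, 53.1 and 64.1 for DKO. Trim30a, a TRIM family gene, was above WT in every library of miR-24 Tg, miR-27 Tg, cluster Tg and DKO. It rose 1.42-fold in miR-27 Tg (log2 0.50, SE 0.10, adjusted p = 0.00227) and 1.31-fold in cluster Tg (log2 0.39, SE 0.10, adjusted p = 0.0125). Trim25, the ligase that acts on RIG-I, had log2 differences of 0.012 and -0.10, and Parp14 of 0.34 (adjusted p = 0.0511) and 0.016.

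The 5 members of other or less settled function were mixed. Rtp4 stood at 25.7, 20.4 and 25.7 RPKM in WT libraries 1 to 3, at 47.3, 43.3 and 41.4 in miR-27 Tg and at 45.8, 45.4 and 38.9 in cluster Tg. For Rtp4 the remaining libraries held 17.6, 19.7 and 14.4 for miR-23 Tg, 29.01, 20.6 and 32.7 for miR-24 Tg and 29.1, 26.03 and 38.4 for DKO. Rtp4, a receptor chaperone gene strongly induced by interferon, rose 1.83-fold in miR-27 Tg (log2 0.87, SE 0.17, adjusted p = 0.00221) and 1.80-fold in cluster Tg (log2 0.85, SE 0.17, adjusted p = 0.00311), with no library overlapping WT. Ifi44 stood at 1.23, 0.854 and 0.819 RPKM in WT libraries 1 to 3, at 13.7, 1.40 and 4.04 in miR-27 Tg and at 6.14, 4.03 and 1.90 in cluster Tg. For Ifi44 the remaining libraries held 0.556, 0.361 and 0.208 for miR-23 Tg, 3.18, 2.36 and 2.203 for miR-24 Tg and 2.91, 1.87 and 2.87 for DKO. Ifi44 was above WT in 4 groups and below it in miR-23 Tg, and miR-27 Tg library 1 held the highest value by far. It was called in miR-27 Tg (log2 1.77, SE 0.53, adjusted p = 0.0222) and not in cluster Tg (log2 1.51, adjusted p = 0.0505). Without miR-27 Tg library 1 the Ifi44 difference was 1.01 and no longer called, and without miR-27 Tg library 2 it was 2.46. WT library 2 or 3 left out also ended the call (adjusted p up to 0.124 over the alternatives). So did a fit of only the compared groups and leaving out the 2 libraries of highest B cell marker sums.

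Sp100 stood at 186, 171 and 191 RPKM in WT libraries 1 to 3, at 166, 149 and 162 in miR-27 Tg and at 129, 141 and 158 in cluster Tg. For Sp100 the remaining libraries held 148, 145 and 155 for miR-23 Tg, 155, 157 and 151 for miR-24 Tg and 202, 163 and 181 for DKO. Sp100, a component of PML nuclear bodies, was the 1 member called lower, in cluster Tg (1.28-fold, log2 -0.36, SE 0.087, adjusted p = 0.00929), and its miR-23 Tg, miR-24 Tg and miR-27 Tg libraries were all below WT as well without passing. The Sp100 call was lost without cluster Tg library 1 (adjusted p = 0.0567) and when only the compared groups were fitted (0.0574). Xaf1, a gene linked to cell death, had log2 differences of 0.34 and 0.37 (adjusted p = 0.0622 and 0.0539), and Ifi35 of 0.031 and 0.055. In all, 15 of 41 members were called in no comparison with WT.

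**Figure D3:**
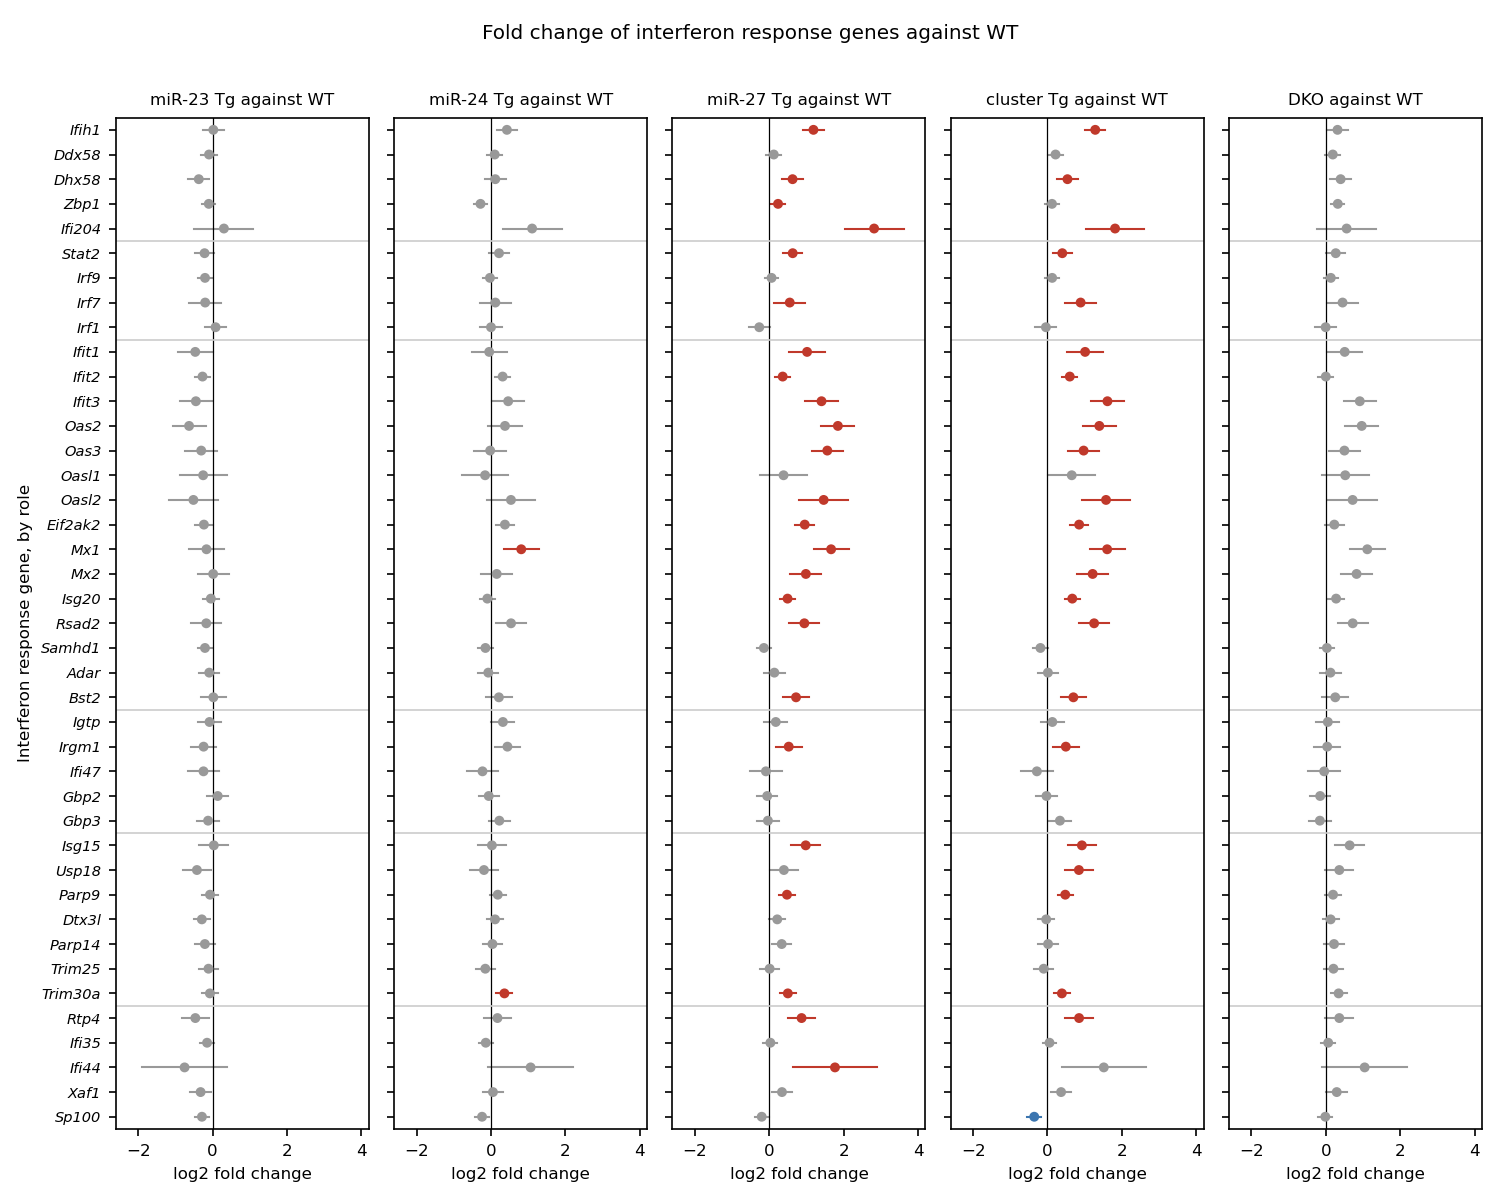
Points give the log2 difference of each of the 41 members against WT and lines its 95% interval, in 1 panel for each genotype; red marks members called higher, blue lower and grey not called. The miR-27 Tg panel has 24 red points and the cluster Tg panel 23 red and 1 blue, the miR-24 Tg panel 2 red, and the miR-23 Tg and DKO panels none.

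The immunity-related GTPases of the IRG and GBP families attack vacuoles that hold pathogens and are best known as targets of interferon gamma. Among the 5 in this set, 1 was called higher in each of miR-27 Tg and cluster Tg. Irgm1 stood at 62.5, 55.2 and 61.01 RPKM in WT libraries 1 to 3, at 89.5, 82.2 and 85.8 in miR-27 Tg and at 84.7, 73.4 and 94.97 in cluster Tg. For Irgm1 the remaining libraries held 49.95, 52.4 and 48.3 for miR-23 Tg, 93.3, 60.6 and 94.2 for miR-24 Tg and 63.5, 49.4 and 72.9 for DKO. Irgm1 was that gene, and its libraries in both groups were above WT. It rose 1.44-fold in miR-27 Tg (log2 0.53, SE 0.16, adjusted p = 0.0244) and 1.41-fold in cluster Tg (log2 0.49, SE 0.16, adjusted p = 0.0374). The Irgm1 call in miR-27 Tg was lost without miR-27 Tg library 1 or 3 or WT library 2 or 3 (adjusted p up to 0.0811). Leaving out the 2 libraries of highest B cell marker sums ended it too. The Irgm1 call in cluster Tg was lost without cluster Tg library 1 or 3 or any WT library (up to 0.113). With no filter and with median-of-ratios scaling it was lost as well. Gbp2 stood at 95.7, 105 and 96.7 RPKM in WT, 89.1, 100.5 and 97.5 in miR-27 Tg and 94.9, 83.8 and 116 for cluster Tg, with overlapping groups (log2 -0.053, 95% interval -0.33 to 0.22, and -0.027, -0.30 to 0.25). Igtp, at 145 ± 16.9 RPKM in WT, 164 ± 10.8 in miR-27 Tg and 159 ± 19.8 for cluster Tg (SD, n = 3), overlapped too. Gbp3 had log2 differences of -0.034 and 0.33, and Ifi47 of -0.088 and -0.28. A longer list of 16 GTPase genes held 3 called higher in miR-27 Tg (Gbp5, Iigp1 and Irgm1) and 2 in cluster Tg (Gbp6 and Irgm1), shares near the 15.9% and 13.8% of all tested genes, with medians of -0.0015 and 0.15, against 0.53 and 0.66 for the 36 members that are no such GTPases. The difference between these lists was not tested.

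The promoter motifs were set beside these calls. Of the members called higher in both groups (22), in miR-27 Tg only (2) or in cluster Tg only (1), 16 had a searched promoter. Of the 16 members called higher in neither, 15 had one. Most members without a searched promoter were thus among those called higher. An interferon-stimulated response element was in 11 of 16 searched promoters (68.8%) of members called higher in miR-27 Tg or cluster Tg, and in 4 of 15 (26.7%) of the others, namely Ddx58, Igtp, Gbp2 and Gbp3. The gamma-activated site was in 4 of 16 (25.0%) and 5 of 15 (33.3%). Isg15, Ifit1, Ifit3, Oas3 and Rsad2, whose windows are printed above, had the former and were called in both groups. Bst2, Eif2ak2 and Igtp had both motifs. Bst2 and Eif2ak2 were called in both groups and Igtp in neither.

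Comparisons between the transgenic groups do not use the WT means, but their estimate of the spread comes from all 18 libraries, WT included. Of the 11520 tested genes, 12.4% were called higher and 1261 lower in miR-27 Tg than in miR-23 Tg. Against miR-23 Tg, 29 of 41 members were called higher in miR-27 Tg and 0 lower, with a median log2 difference of 0.67. Without Ifi204 these were 28 of 40. The largest were Ifi44 (2.52), Oas2 (2.48), Oasl2 (1.98), Oas3 (1.87) and Ifit3 (1.86). Some members that did not pass against WT passed here, among them Irf9 (0.27), Usp18 (0.82), Xaf1 (0.67), Parp14 (0.55) and Dtx3l (0.51). Against miR-24 Tg, 19 members were called higher in miR-27 Tg and 0 lower, with a median of 0.41, or 18 of 40 without Ifi204. There 13.2% of the 11520 tested genes were called higher and 1250 lower. These 2 comparisons share the miR-27 Tg libraries.

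Whether the whole cluster and miR-27 alone differ was tested directly. By limma, 0 of 41 members were called in cluster Tg against miR-27 Tg, where 3.5% of tested genes were called higher and 3.35% lower. An unadjusted p under 0.05 was found for 8 of 41 members and for 2777 of the 11520 tested genes. The median log2 difference was -0.025. The 95% interval of the difference was -0.18 to 0.37 for Ifih1, -0.44 to 0.33 for Isg15 and -0.55 to 0.77 for Oasl2. For Oas2 it was -0.90 to -0.0075, on the low side in cluster Tg, with an adjusted p of 0.2. Oas3 had the lowest difference apart from Ifi204 (log2 -0.59, adjusted p = 0.0868).

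In miR-24 Tg the 2 called members were Mx1 (1.76-fold higher, log2 0.82, SE 0.22, adjusted p = 0.0339) and Trim30a (1.29-fold, log2 0.36, SE 0.10, adjusted p = 0.0376). Both had all libraries above WT, as printed above. An unadjusted p under 0.05 was found for 12 of 41 members and for 2769 of all 11520 tested genes, shares close to each other. The median of the 41 was 0.12. Mx1 was no longer called without miR-24 Tg library 1 or 2 or WT library 2 or 3, nor Trim30a without miR-24 Tg library 1 or 2 or any WT library. Library 1 of miR-24 Tg held the highest summed level of myeloid markers (174 RPKM) and library 2 was the lowest of its group in 32 of 41 members.

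Treg cells with miR-23 overexpression had most members on the low side of WT. By limma, 0 of 41 were called, where 0.156% of tested genes were called higher and 0.2% lower, and 11 had an unadjusted p under 0.05, as had 1567 of the 11520 tested genes. The mean was below WT for 34 of 41, with a median of -0.21 against 0.0082 for all tested genes. In 17 members, every miR-23 Tg library lay below every WT library, where 10.8% of tested genes did so. Among them Oas2 had a log2 difference of -0.63 (95% interval -1.08 to -0.19, adjusted p = 0.19), Rtp4 of -0.47 (-0.84 to -0.094, 0.25) and Dhx58 of -0.37 (-0.65 to -0.094, 0.219). Ifih1 and Isg15 had differences of 0.018 and 0.031. The B cell, myeloid and cell cycle marker sums were above WT in this group too, at 37.9 to 46.9, 34.6 to 61.3 and 184 to 195 RPKM.

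Deletion of both clusters left no member past the threshold, but the values leaned upward. By limma, 0 of 41 were called in DKO, where 0.0174% of tested genes were called higher, and 17 had an unadjusted p under 0.05, as had 254 of all 11520 tested genes. The mean was above WT for 36 of 41, with a median of 0.28 against -0.0041 for all tested genes. In 24 members every DKO library lay above every WT library, where 3.32% of tested genes did so. The largest differences were Mx1 (1.12, 95% interval 0.65 to 1.59, adjusted p = 0.232), Ifi44 (1.05, -0.087 to 2.18, 1), Oas2 (0.97, 0.52 to 1.41, 0.412), Ifit3 (0.92, 0.48 to 1.35, 0.48) and Mx2 (0.83, 0.41 to 1.25, 0.554). Mx2 stood at 5.38, 5.08 and 5.57 RPKM in DKO and 3.58, 2.30 and 2.62 in WT.

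Cluster Tg and DKO, the gain and the loss of the cluster, were also compared directly. In cluster Tg 9 members were higher than in DKO, where 15.1% of tested genes were called higher, and 1 was lower, where 11.6% were. Apart from Ifi204, the 8 higher were Ifih1 (log2 0.97), Ifit3 (0.70), Eif2ak2 (0.62), Ifit2 (0.60), Gbp3 (0.49), Irgm1 (0.45), Isg20 (0.39) and Parp9 (0.28), and Sp100 was lower (-0.34). Oas2 (0.43, 95% interval -0.018 to 0.87), Mx1 (0.49, 0.016 to 0.96) and Isg15 (0.28, -0.10 to 0.67) were not called. Between 4 and 16 members were called when 1 library was left out, 4 without cluster Tg library 1, 16 without cluster Tg library 3, and 6 without DKO library 1 or 2.

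Libraries of a group differed in level, and most members tended to be high or low in the same library. Library 1 of miR-27 Tg was the highest of its group in 32 of 41 members. Its median over the 36 members outside the IRG and GBP families was 0.84 above the WT mean on the log2 scale. That median was 0.43 in each of libraries 2 and 3. Library 1 held the lowest B cell sum of its group (37.98 RPKM, against 69.9 and 110.4) and the lowest cell cycle sum (188 against 524 and 505). Library 3 of cluster Tg was the lowest of its group in 30 members, with a median of 0.41 against 0.78 and 0.76, and library 2 of DKO in 30, with 0.20 against 0.38 and 0.45. Within WT, library 1 was the highest in 29 of 41 members. Among plasmacytoid dendritic cell markers, genes of a cell type known for making type I interferon, the summed level was 43.3 to 53.5 RPKM in WT, 53.98 to 59.4 in miR-27 Tg and 44.2 to 55.7 in cluster Tg, with Cd300c and Cox6a2 listed at 0 in WT and 1 of 4 tested called higher (Ly6d) and 1 lower (Pacsin1) in either group. B cell markers were called higher in miR-27 Tg for 9 of 9 tested and in cluster Tg for 0 of 9, myeloid markers for 4 of 8 and 0 of 8, and cell cycle genes for 12 of 12 and 8 of 12. Plasma cell markers were called higher for 3 of 5 and 0 of 5, and natural killer (NK) cell markers for 2 of 4 tested (Klrd1 and Ncr1) and 1 of 4 (Klrd1). NK markers summed to 17.6, 6.84 and 21.97 RPKM in libraries 1 to 3 of miR-27 Tg and to 20.1, 8.32 and 3.89 in those of cluster Tg, against 3.68 to 4.12 in WT, where Klra8 was listed at 0. Plasma cell markers summed to 77.99, 98.01 and 168 RPKM in miR-27 Tg and 66.9 to 72.7 in cluster Tg, against 52.9 to 59.4 in WT. In DKO libraries 1 to 3, NK markers summed to 4.52, 7.64 and 5.32 RPKM and plasma cell markers to 57.3, 70.2 and 68.6. The part of these cells and of cycling in the members' levels was not tested.

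**Figure D4:**
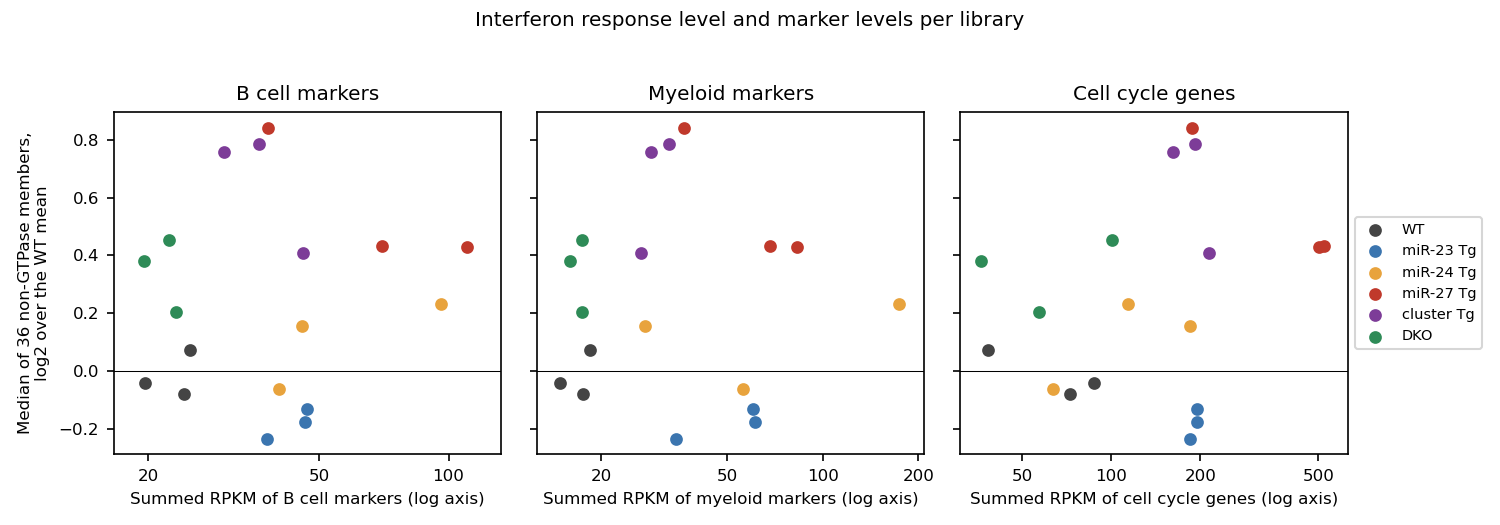
The vertical axis gives each library's median of the 36 members outside the IRG and GBP families, as log2 over the WT mean. The horizontal log axes give the summed RPKM of B cell, myeloid and cell cycle markers, for each of the 18 libraries. The miR-27 Tg library with the highest member median, 0.84, has the lowest B cell sum of its group. DKO libraries lie above WT in the members, at B cell, myeloid and cell cycle sums near those of WT. NK cell markers, not drawn, summed to 17.6, 6.84 and 21.97 RPKM in miR-27 Tg libraries 1 to 3, against 3.68 to 4.12 in WT. In cluster Tg libraries 1 to 3 they summed to 20.1, 8.32 and 3.89, and in those of DKO to 4.52, 7.64 and 5.32. The part of other cells in the members' levels was not tested.

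Type I interferon genes were listed at 0 or at most 0.143 RPKM in every library, and of 11 interferon ligand genes only Ifng passed the filter. Ifng stood at 11.2, 7.41 and 5.99 RPKM in WT libraries 1 to 3, at 12.3, 6.99 and 10.97 in miR-27 Tg and at 32.4, 22.97 and 9.50 in cluster Tg. For Ifng the remaining libraries held 14.7, 17.6 and 16.9 for miR-23 Tg, 9.09, 35.7 and 16.3 for miR-24 Tg and 8.07, 13.7 and 5.81 for DKO. Ifng, the gene of interferon gamma, varied up to several-fold within a group and was called in no comparison with WT (log2 0.29 for miR-27 Tg and 1.23 for cluster Tg, adjusted p = 0.692 and 0.0768). Of 12 receptor, kinase and regulator genes tested, 1 was called higher and 4 lower in miR-27 Tg, 2 higher and 2 lower in cluster Tg, 1 lower in miR-24 Tg (over all tested genes 15.9% and 12.7%, 13.8% and 10.5%, and 4.38%), and 0 of 12 by limma in miR-23 Tg or DKO, where 2 and 0 had an unadjusted p under 0.05.

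Ifnar1 stood at 43.3, 39.4 and 39.1 RPKM in WT libraries 1 to 3, at 31.9, 31.7 and 26.6 in miR-27 Tg and at 36.3, 36.96 and 34.1 in cluster Tg. For Ifnar1 the remaining libraries held 34.6, 34.1 and 38.2 for miR-23 Tg, 35.5, 35.9 and 36.5 for miR-24 Tg and 44.7, 40.6 and 32.7 for DKO. Ifnar1, a chain of the type I receptor, was below WT in every library of miR-23 Tg, miR-24 Tg, miR-27 Tg and cluster Tg. It fell 1.35-fold in miR-27 Tg (log2 -0.43, SE 0.099, adjusted p = 0.00552). In cluster Tg it was not called (log2 -0.18, adjusted p = 0.211), nor was it in miR-23 Tg or miR-24 Tg. Ifngr1 stood at 127, 130.4 and 126 RPKM in WT libraries 1 to 3, at 94.6, 84.5 and 72.3 in miR-27 Tg and at 121, 118 and 104 in cluster Tg. For Ifngr1 the remaining libraries held 148, 154 and 145 for miR-23 Tg, 146, 153 and 144 for miR-24 Tg and 118, 114 and 136 for DKO. Ifngr1, the ligand-binding chain of the interferon gamma receptor, fell 1.53-fold in miR-27 Tg (log2 -0.61, SE 0.094, adjusted p = 0.000391) and was higher in cluster Tg than in miR-27 Tg when these were compared (log2 0.45, adjusted p = 0.0128). Ifngr2 stood at 33.7, 32.8 and 30.5 RPKM in WT libraries 1 to 3, at 21.8, 20.2 and 17.3 in miR-27 Tg and at 16.6, 18.3 and 24.6 in cluster Tg. For Ifngr2 the remaining libraries held 22.98, 23.7 and 25.9 for miR-23 Tg, 23.1, 20.4 and 21.00 for miR-24 Tg and 34.1, 32.05 and 26.97 for DKO. Its partner chain Ifngr2 was below WT in all libraries of every transgenic group, and it fell 1.63-fold in miR-27 Tg (log2 -0.70, SE 0.13, adjusted p = 0.00132), 1.64-fold in cluster Tg (log2 -0.71, SE 0.13, adjusted p = 0.00151) and 1.49-fold in miR-24 Tg (log2 -0.58, SE 0.13, adjusted p = 0.0129). The miR-24 Tg call on Ifngr2 was lost without WT library 1.

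Jak1 stood at 172, 187 and 193 RPKM in WT libraries 1 to 3, at 156, 144 and 138 in miR-27 Tg and at 156, 156 and 155 in cluster Tg. For Jak1 the remaining libraries held 186, 178 and 164 for miR-23 Tg, 186, 206 and 182 for miR-24 Tg and 189, 179.7 and 163 for DKO. Jak1, the kinase shared by both receptors, fell 1.26-fold in miR-27 Tg (log2 -0.33, SE 0.077, adjusted p = 0.00557) and 1.18-fold in cluster Tg (log2 -0.24, SE 0.077, adjusted p = 0.0362). Jak2, the kinase of the interferon gamma receptor, rose in both (log2 0.43 and 0.51). Ifnar2, the other chain of the type I receptor, stood at 50.4, 46.9 and 45.4 RPKM in WT, 47.7, 48.1 and 44.9 in miR-27 Tg and 62.4, 55.5 and 54.2 for cluster Tg, where every library was above WT and the gene was called higher (log2 0.27, adjusted p = 0.0149). Calls of Jak1, Jak2 and Ifnar2 in cluster Tg were each lost without cluster Tg library 1. Those of Ifnar2 and Jak1 were also lost without WT library 3, that of Jak1 without WT library 2 or any 1 cluster Tg library, and that of Jak2 in miR-27 Tg without miR-27 Tg library 1 or WT library 1 or 3. Tyk2, the other kinase at the type I receptor, was at 35.8 ± 3.35 RPKM in WT, 42.2 ± 7.26 in miR-27 Tg and 43.3 ± 5.56 for cluster Tg (SD, n = 3) and was not called.

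**Figure D5:**
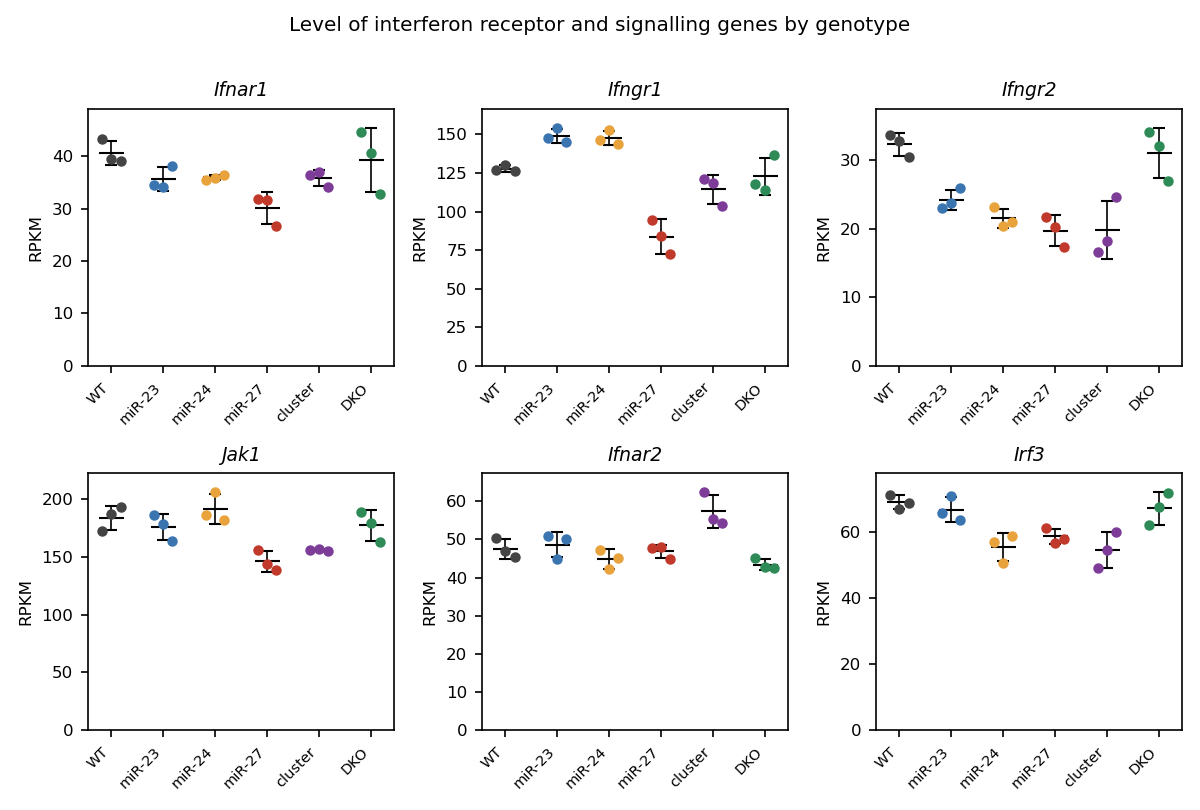
RPKM of Ifnar1, Ifngr1, Ifngr2, Jak1, Ifnar2 and Irf3 in each of the 18 libraries (dots), with the group mean and SD (n = 3 per group). Every miR-27 Tg library is below every WT library for Ifnar1, Ifngr1, Ifngr2, Jak1 and Irf3. For Ifnar1 and Ifngr2, the miR-23 Tg, miR-24 Tg and cluster Tg libraries are below WT as well. Ifnar2 is above WT in every cluster Tg library.

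Among 15 genes that link nucleic acid sensing to interferon production, 2 were called higher and 2 lower in miR-27 Tg, 1 higher and 3 lower in cluster Tg, and 2 lower in miR-24 Tg. The miR-27 Tg and cluster Tg shares are near those of all tested genes (15.9% higher and 12.7% lower, 13.8% and 10.5%), and in miR-24 Tg 4.38% of tested genes were lower. By limma 0 of 15 were called in miR-23 Tg and DKO, with 3 and 0 at an unadjusted p under 0.05. Mb21d1, which encodes the DNA sensor cGAS, had means of 2.46 ± 0.292 RPKM in WT and 5.14 ± 0.271 in miR-27 Tg (SD, n = 3) and rose 1.91-fold (log2 0.93, SE 0.14, adjusted p = 0.000316). Ticam1, the adaptor gene for TLR3, rose 1.38-fold (log2 0.46, SE 0.10, adjusted p = 0.0039). Traf6, a ubiquitin ligase in this signalling, fell 1.48-fold in miR-27 Tg (log2 -0.56, SE 0.10, adjusted p = 0.00141) and 1.39-fold in cluster Tg (log2 -0.48, SE 0.10, adjusted p = 0.00474). Irf3, the factor that starts interferon transcription, fell 1.17-fold (log2 -0.23, SE 0.082, adjusted p = 0.0465) and 1.27-fold (log2 -0.34, SE 0.082, adjusted p = 0.00815), calls that were lost in miR-27 Tg without any WT library or without miR-27 Tg library 2 or 3, and in cluster Tg without its library 1. Tmem173, the gene of STING, was called lower in cluster Tg (log2 -0.37), a call lost without cluster Tg library 1 or 2 or any WT library, and in miR-24 Tg (-0.73).

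Other interferon-stimulated genes, 57 tested outside the set of 41, held 19 called higher and 2 lower in miR-27 Tg, and 18 higher and 2 lower in cluster Tg. Over all tested genes, 15.9% were higher and 12.7% lower in the former and 13.8% and 10.5% in the latter. Ifitm3, a membrane protein gene that blocks viral entry, stood at 4.73, 6.60 and 6.93 RPKM in WT, 32.4, 44.96 and 55.6 in miR-27 Tg and 48.4, 20.2 and 10.6 for cluster Tg. It rose 6.73-fold (log2 2.75, SE 0.42, adjusted p = 0.000391) and 3.45-fold (log2 1.78, SE 0.42, adjusted p = 0.00742), with no overlap with WT. Ifitm2 rose 3.86-fold and 3.28-fold, Parp12 3.03-fold and 2.78-fold, and Cmpk2 1.79-fold and 2.40-fold. In miR-24 Tg 6 were called higher and 2 lower, against 4.6% and 4.38% of tested genes, in miR-23 Tg 1 was called lower (Pyhin1), and in DKO 0 of 57 passed by limma, with 2 at an unadjusted p under 0.05.

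The 3′ UTRs were searched for letters complementary to the miR-27 seed, which are ACTGTGA. A match was in 6 of 41 members (14.6%), namely Ifih1, Irf9, Ifit1, Ifit3, Rsad2 and Gbp2, against 17.2% of the 10609 tested genes with an annotated 3′ UTR. Of these 6, Ifih1, Ifit1, Ifit3 and Rsad2 were among the members called higher in miR-27 Tg, and Irf9 and Gbp2 were not called. For miR-23 the seed match was in 5 of 41 (12.2%, against 16.3%) and for miR-24 in 7 of 41 (17.1%, against 19.1%). Of 83 other pathway genes tested, 16 (19.3%) had a miR-27 match. Ifnar1, which fell in miR-27 Tg, was among them, and so were Mb21d1, Ticam1, Jak2 and Parp12, which rose there. The windows show the match in capitals for the 4 members that were higher and for Ifnar1, which was lower, in miR-27 Tg, and a match does not show that the site is used.
Ifih1: aagctcctgtcACTGTGActaccacacag
Ifit1: tgacacagtcaACTGTGAgtgcttccatc
Ifit3: ctcagctctgtACTGTGAgacagatgtgc
Rsad2: gtgtggattttACTGTGAatcccacattt
Ifnar1: atctctcaacaACTGTGAcacaggtcttc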

How the data were processed

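RNA from sorted Treg cells was prepared as total RNA, small RNAs included, and sequenced on an Illumina HiSeq instrument after a TruSeq RNA kit, per the labels' protocols. The authors deposited 1 table of RPKM values for all 18 libraries. STAR 2.2.0c, HOMER and the builds mm10 and GRCm38 are named in the submitters' processing notes; the annotation, strand use and filters are not given in the sources used here. Entries with a repeated symbol (4) were left out, and 5198 entries are listed at 0 in all libraries. A gene was tested if 3 or more libraries reached 1 RPKM (11520 genes), with limma 3.58.1 (R 4.3.3) on log2(RPKM + 0.5), as a trended fit over all 18 libraries with 1 mean per group and Benjamini-Hochberg adjustment within each of 9 comparisons, and the script was tested on simulated data. Log2 differences understate the change of low genes. Low values of 5346 genes with 1 transcript gave an approximate depth, but only 26.8 to 35.1% of their values came out whole within 0.05 reads, so no count test was run. The labels name no batch, and no 2 libraries were identical. Values in every library are given, per role, for the called members with the largest log2 difference from WT (up to 6 effectors and 4 in each other role), for Irf7, Stat2, Isg15, Ifit3 and Mx1 in any case, and for a list of receptors, kinases and the top called pathway genes, some as group means. A gene of the pathway lists is not reported here. The members and lists were chosen with earlier results of these data known. Gene coordinates are from GENCODE M21 (GRCm38). Alternatives were another pseudocount, no filter, median-of-ratios scaling, a fit of the compared groups only, a replicate block, leaving out each library, and leaving out both libraries with the highest B cell marker sums.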

Additional observations from a re-analysis of the deposited data

How the results depend on the processing

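No call reversed its direction under any alternative run. Members called against WT ranged from 20 to 26 (miR-27 Tg) and from 21 to 27 (cluster Tg), and 19 of 24 calls in each held under every alternative run. In miR-23 Tg and DKO the count was 0 under all of them. In miR-24 Tg, 2 members became 4 with a pseudocount of 0.1, 0 without a filter, 4 with only the compared groups, 7 with a replicate block, 0 with both high-marker libraries left out (library 1 of miR-24 Tg, library 3 of miR-27 Tg), and 0 to 3 when 1 library was left out. In miR-27 Tg against miR-24 Tg, 19 became 9 with only the compared groups and 13 to 17 without 1 library. In cluster Tg against miR-27 Tg, 0 became 1 with a replicate block and 0 to 1 without 1 library. In cluster Tg against DKO, 10 became 4 with only the compared groups and 4 to 16 without 1 library. Fits of only the compared groups or without 1 library hold fewer libraries, and what moved the counts was not tested. Whether libraries with the same number pair was not settled. The correlation of their deviations had a median of 0.0040 over 45 pairs (-0.17 to 0.19), with 6 pairs over 0.1. Of 18 libraries, 9 correlated best with their own number among the numbers 1 to 3. With the replicate block, 26 members were called for miR-27 Tg against WT, 27 for cluster Tg against WT, 30 for miR-27 Tg against miR-23 Tg, and 13 for cluster Tg against DKO. Depth limits Ifi204 and Ifi44, which were under 1 RPKM in at least 2 of 3 WT libraries.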
